A study of Mus musculus with 48 samples.

Results

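The genes described are 10 genes of T cells and natural killer (NK) cells, Cd3e, Cd4, Cd8a, Klrd1, Gzma, Gzmb, Prf1, Nkg7, Ccl5 and Il12rb2, out of 22180 gene symbols measured. They were chosen by name, and for each the probe set with the highest mean signal among those annotated to a single symbol was taken. Each of the 10 had 1 such probe set. Prf1 had 1 further probe set shared with another symbol, which was not used.

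The samples were whole tissue from the SCJ/cardia, where the oesophagus joins the stomach, of mice in a study of progression from Barrett oesophagus to adenocarcinoma. Total RNA was hybridised to 48 arrays, 3 in each of 16 groups. All mice named pL2 (spelled pl2 or pL2 in the labels) carry the interleukin-1 beta (IL-1 beta) transgene, known as a model in which a squamous epithelial promoter drives the human cytokine. The labels do not state whether the 3 samples of a group were 3 mice, so p-values measure the spread between these samples.

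Wild-type (WT) mice on chow at 12 months came from the MRI facility (WT_MRI_chow) and from Freising (WT_Freising_chow), as did pL2 mice on chow at 12 months (pL2_MRI_chow, pL2_Freising_chow). Both genotypes were also fed HFD, a high fat diet, at Freising and taken at 12 months (WT_Freising_HFD, pL2_Freising_HFD). The remaining 10 groups were on chow at MRI. The genotypes FXR and pl2_FXR were taken at 12 months, and the labels do not say what was done to FXR, a bile acid receptor. The genotype pl2_IL8, in which interleukin-8 is overexpressed on the transgene, was taken at 9 months (pL2_IL8_9mo) and at 12 months (pL2_IL8_12mo). The other 6 groups carry pL2, a tamoxifen-inducible driver and a changed Notch gene. With the Lgr5 driver, which marks stem cells, these were Notch1fl_fl (taken at 9 to 11 months, tamoxifen at 3 to 4), Notch2fl_fl (10 to 11 months, tamoxifen at 4 to 5) and the activated form Notch2IC_LacZ (10 to 11 months, tamoxifen at 4). With the Dclk driver, which marks tuft cells, they were Notch1fl_fl (11 to 13 months), Notch2fl_fl (10 to 12 months) and Notch2IC_LacZ (11 to 12 months), all with tamoxifen at 5 to 6 months. The reference for all 6 was pL2_MRI_chow, which has neither driver nor tamoxifen, so the Notch allele, driver, tamoxifen and age cannot be told apart in those comparisons.

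T cells recognise antigen through a receptor whose signal is carried by the CD3 chains, and the co-receptors CD4 and CD8 divide helper from killer cells. Killer T cells and NK cells store perforin and granzymes in granules and release them onto target cells. In the lining of the gut many T cells sit between epithelial cells, and part of them carry a receptor made of gamma and delta chains. In bulk tissue, fewer cells of a type and less RNA per cell cannot be told apart.

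Values are log2 RMA signals, on which 1 unit is a doubling, and the 48 array medians lay between 4.03 and 4.27. Several of the 10 genes were near or below that level. Cd3e was above the array median in 45 arrays, Nkg7 in 47, Ccl5 in 39, Prf1 in 38, Il12rb2 in 35, Cd8a in 20, Cd4 in 15, Gzmb in 9, Klrd1 in 6 and Gzma in 2. A gene had to exceed that median in 3 or more arrays to be tested, which kept 9 of the 10 and left out Gzma. The gastric marker list (8 tested genes) averaged 11.47 to 12.84 per array and the squamous list (8 tested genes) 8.47 to 11.63, so both linings of the junction were present in every sample.

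The 250 bases before the transcript start are given for 4 of the 10 genes: for Cd3e and Il12rb2, the only members called in any comparison, and for Nkg7 and Gzmb, as examples of windows that held motifs of 2 factor families known in T and NK cells. Windows were taken from a table of RefSeq promoters (GRCm38.p6) and matched for 7 of the 10 genes; windows of Cd4, Klrd1 and Ccl5 were not analysed here. The windows are chr9:45009612-45009861 on the minus strand (Cd3e), chr6:67376189-67376438 on the minus strand (Il12rb2), chr7:43436888-43437137 on the plus strand (Nkg7) and chr14:56262335-56262584 on the minus strand (Gzmb). Each is written 5′ to 3′ along its gene, and capitals mark matches to 4 motifs searched on both strands: RUNX (TGTGGT), ETS (GGAAGT), AP-1 (TGANTCA) and T-box (GGTGTGA).
Cd3e: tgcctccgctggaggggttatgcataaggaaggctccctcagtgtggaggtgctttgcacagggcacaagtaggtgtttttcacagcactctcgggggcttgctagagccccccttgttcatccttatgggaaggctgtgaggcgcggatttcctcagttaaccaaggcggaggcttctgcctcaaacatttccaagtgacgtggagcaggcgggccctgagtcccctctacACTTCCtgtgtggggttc
Il12rb2: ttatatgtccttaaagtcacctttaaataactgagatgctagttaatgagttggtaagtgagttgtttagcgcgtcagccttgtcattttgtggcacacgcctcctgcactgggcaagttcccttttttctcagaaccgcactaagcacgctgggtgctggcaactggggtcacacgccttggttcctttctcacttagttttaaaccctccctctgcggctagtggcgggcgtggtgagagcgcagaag
Nkg7: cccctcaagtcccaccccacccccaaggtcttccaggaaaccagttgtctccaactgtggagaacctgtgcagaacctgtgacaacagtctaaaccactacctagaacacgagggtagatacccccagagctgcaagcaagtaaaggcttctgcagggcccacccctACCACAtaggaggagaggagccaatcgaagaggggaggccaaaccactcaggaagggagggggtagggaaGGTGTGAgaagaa
Gzmb: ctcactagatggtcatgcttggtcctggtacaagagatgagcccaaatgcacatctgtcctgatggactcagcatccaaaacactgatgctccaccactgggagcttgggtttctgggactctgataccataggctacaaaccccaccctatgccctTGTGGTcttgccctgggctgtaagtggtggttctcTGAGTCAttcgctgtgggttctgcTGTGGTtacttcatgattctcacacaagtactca
The RUNX letters stood in 4 of the 7 member windows (Nkg7, Prf1, Gzma and Gzmb) and in 14.04% of 32817 RefSeq windows of this length. The ETS letters stood in 2 (Cd3e and Prf1) against 19.7% of all windows, the AP-1 letters in 1 (Gzmb) against 6.75%, and the T-box letters in 1 (Nkg7) against 3.33%. The ETS match of Cd3e began 18 bases before the start, and Gzmb held the RUNX letters 93 and 34 bases before it. No motif of the 4 was found in the Il12rb2 window. These matches describe letters only.

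Cd3e encodes the epsilon chain of CD3, which every T cell receptor complex contains, and it was the member that differed with the IL-1 beta transgene. In WT mice on chow it measured 3.73, 5.61 and 4.53 at MRI and at Freising 3.33, 4.46 and 4.85. In pL2 mice on chow it measured 5.51, 5.60 and 5.62 at MRI and 6.14, 6.33 and 5.66 at Freising. At Freising every pL2 array lay above every WT array, while at MRI WT replicate 2 reached the level of pL2. Averaged over both facilities, Cd3e was 1.39 ± 0.31 higher in pL2 (standard error; 2.62-fold; limma adjusted p = 0.00140), and 6 of 6 pL2 arrays were above their WT mean. It was the only 1 of 9 tested members called in that comparison, in which 21.9% of all 15242 tested genes were called.

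The difference was also tested within each setting. At Freising on chow Cd3e was 1.83 ± 0.44 higher in pL2 (limma adjusted p = 0.0204), again the only 1 of 9 members called, with 1.64% of all genes called. On HFD, the WT arrays measured 3.97, 4.56 and 4.99 and the pL2 arrays 6.30, 7.14 and 5.84. The difference there was 1.92 ± 0.44 (limma adjusted p = 0.0177; 1 of 9 members and 1.16% of all genes called). The FXR arrays measured 4.22, 4.36 and 5.00 and the pL2_FXR arrays 6.14, 6.90 and 5.82. That difference was 1.76 ± 0.44 (limma adjusted p = 0.00776; 1 of 9 members and 10.1% of all genes called). At MRI on chow the difference was 0.95 ± 0.44 (limma adjusted p = 0.112) and no member passed, though 23% of all genes did. The Freising difference exceeded the MRI difference by 0.88 ± 0.62 (limma adjusted p = 0.465), so a difference between the facilities was not shown.

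The calls differed in how far they rested on single arrays. The mean over both facilities stayed called without any 1 of its 12 arrays, at 1.17 to 1.64. Without the arrays high in intestinal or liver transcripts it was 1.16 (limma adjusted p = 0.0159). Of the other calls, Freising chow was lost without pL2 replicate 2 or WT replicate 1 or 2 (adjusted p up to 0.136). Freising HFD was lost without pL2 replicate 2 or WT replicate 1 or 2 (adjusted p up to 0.357), and pL2_FXR against FXR without pL2_FXR replicate 2 (adjusted p = 0.0797). Over those left-out fits the Cd3e difference ran from 1.39 to 2.15 on Freising chow and from 1.56 to 2.21 on HFD. Both Freising calls were also lost in a fit of the compared groups alone, at 1.83 (limma adjusted p = 0.0772) on chow and 1.92 (limma adjusted p = 0.159) on HFD. At MRI, where Cd3e was not called, the difference without 1 array at a time ran from 0.51 without WT replicate 1 (limma adjusted p = 0.505) to 1.45 without WT replicate 2 (limma adjusted p = 0.0213).

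**Figure D1:**
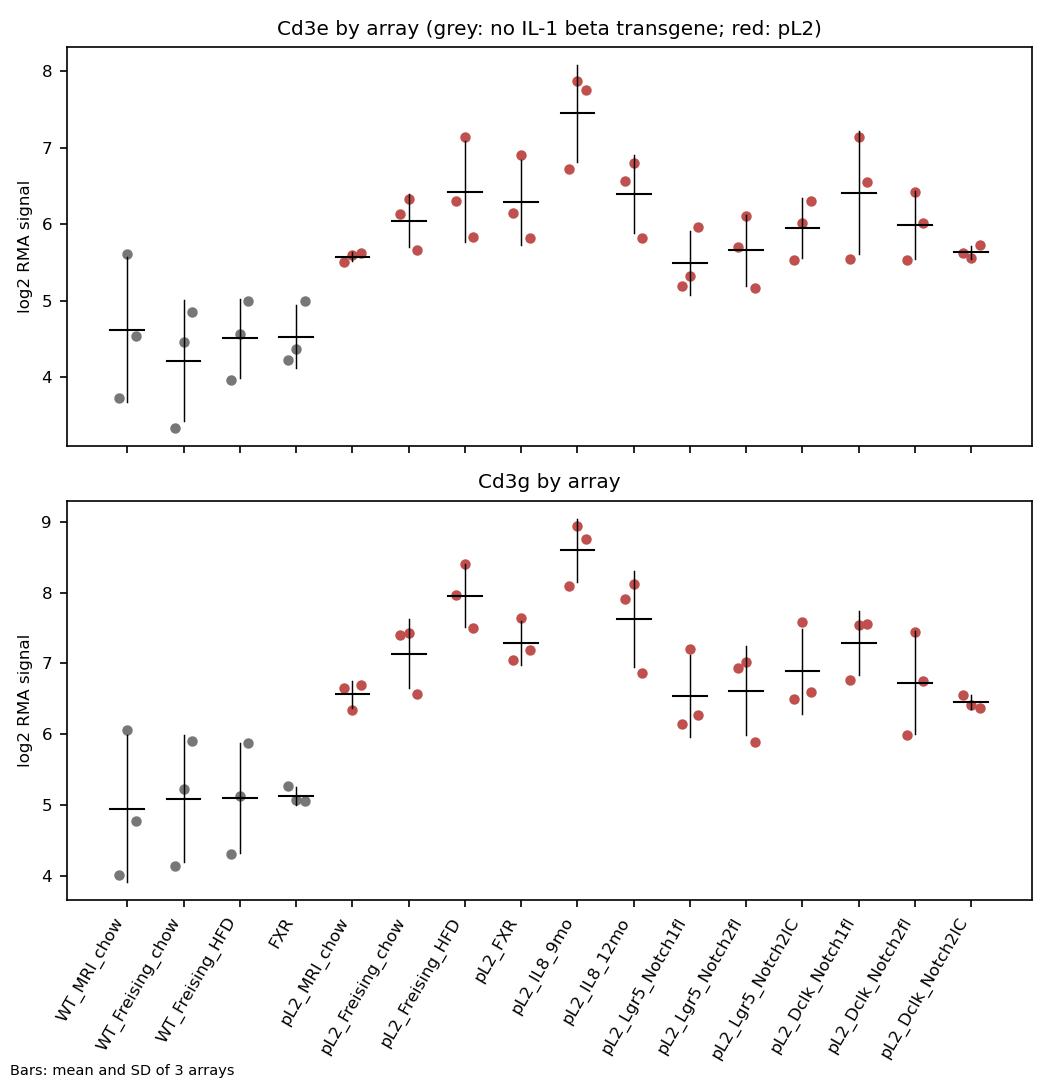
Cd3e (top) and Cd3g (bottom), log2 RMA signal on the vertical axis, for each of 48 arrays in 16 groups; grey points are mice without the IL-1 beta transgene, red points pL2 mice, and bars give the mean and SD of 3 arrays. For Cd3e, 27 of 36 pL2 arrays lay above all 12 arrays without the transgene, and the group pL2_IL8_9mo was the highest.

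Across all groups, the 36 pL2 arrays ranged from 5.17 to 7.87 for Cd3e (median 5.99) and the 12 arrays without the transgene from 3.33 to 5.61 (median 4.50). Of those 12, 11 lay below every pL2 array, the exception being WT_MRI_chow replicate 2. Differences between groups made up 77.8% of the variance of Cd3e over the 48 arrays, the most of the 10 members. With 16 groups of 3 arrays, part of such a share arises from the spread between arrays alone. The highest group was pL2_IL8_9mo, with 6.72, 7.87 and 7.76, and its mean of 7.45 stood 1.02 above the next group, pL2_Freising_HFD. This was the only step between neighbours in the order of the 16 groups that exceeded its 95% half-width of 0.88. The step from pL2_Lgr5_Notch1fl down to WT_MRI_chow was 0.87. The groups were ordered by these same values and the half-width is for 1 comparison, so the steps are described and not tested. The order then ran from pL2_Freising_HFD (6.43) through pL2_Dclk_Notch1fl, pL2_IL8_12mo, pL2_FXR, pL2_Freising_chow, pL2_Dclk_Notch2fl, pL2_Lgr5_Notch2IC, pL2_Lgr5_Notch2fl, pL2_Dclk_Notch2IC and pL2_MRI_chow to pL2_Lgr5_Notch1fl (5.49). The 4 groups without the transgene came last, WT_MRI_chow (4.62), FXR (4.53), WT_Freising_HFD (4.51) and WT_Freising_chow (4.21).

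Within the interleukin-8 line, Cd3e measured 6.56, 6.80 and 5.82 at 12 months. That was 1.06 ± 0.44 below the 9-month arrays (a log2 difference of -1.06; limma adjusted p = 0.524) and 0.82 ± 0.44 above pL2_MRI_chow (limma adjusted p = 0.340). Neither difference passed.

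Other genes of the T cell receptor complex and its signalling were described from a list of 14, of which 11 were in the table as single symbols and 8 were tested. In the transgene comparison over both facilities, 4 of the 8 were called, all higher, and the median of the 8 was 0.63 against -0.01 over all genes, of which 21.9% were called (1380 higher and 1961 lower). Cd3g, the gamma chain of CD3, was 1.83 ± 0.33 higher (limma adjusted p = 0.000188). Its arrays measured 4.01, 6.06 and 4.76 in WT and 6.65, 6.34 and 6.69 in pL2 mice at MRI, and 4.13, 5.22 and 5.90 in WT and 7.41, 7.43 and 6.57 in pL2 mice at Freising, so the groups did not overlap at either facility. Zap70, the kinase that binds the activated CD3 chains, was 0.80 ± 0.19 higher, the T cell surface protein gene Cd5 0.79 ± 0.20 and Cd3d, the delta chain, 0.70 ± 0.22. The Cd3d call was lost in 2 of 8 alternatives and without 3 of its 12 arrays, with differences of 0.56 to 0.91. Cd3g was also called within MRI (1.62 ± 0.46), Freising chow (2.05 ± 0.46), Freising HFD (2.86 ± 0.46) and the FXR line (2.17 ± 0.46), with limma adjusted p between 0.000488 and 0.0132. The Cd3g calls at MRI, on Freising chow and on HFD were each lost in a fit of the compared groups alone. The MRI call was also lost without the arrays high in intestinal or liver transcripts and without WT replicate 1 (limma adjusted p up to 0.198, differences of 1.08 to 2.18), and the Freising chow call without pL2 replicate 2 or WT replicate 1 or 2 (limma adjusted p up to 0.108). The FXR line call was lost in none.

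Over the 48 arrays, the genes most like Cd3e in pattern were Cd3g (Pearson r 0.95), the interleukin-2 and interleukin-15 receptor chain gene Il2rb (0.88) and Trgv6, a variable segment of the T cell receptor gamma chain (0.87). These correlations describe 48 arrays that share group differences and normalisation. After removing group means they were 0.81, 0.65 and 0.60.

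Lists of other cell types moved in the same comparison, in which 21.9% of all genes were called, 1380 higher and 1961 lower. Of 8 tested neutrophil markers 5 were called, all higher, with list means of 4.67 to 6.32 (WT) and 7.03 to 8.09 (pL2) at MRI and 4.64 to 4.79 (WT) and 6.34 to 6.88 (pL2) at Freising. Of 9 macrophage markers 8 were called lower, with list means of 6.66 to 6.85 and 5.64 to 6.32 at MRI and 6.24 to 6.97 and 5.70 to 6.32 at Freising, in WT and pL2. All 6 smooth muscle markers were lower, with list means of 11.70 to 12.19 and 8.62 to 10.69 at MRI and 10.96 to 11.55 and 8.25 to 11.66 at Freising. Of 4 tested B cell markers 1 was called, Blk at 1.61 ± 0.30, a share of the list near that of all genes, and of 6 plasma cell markers none. A sex-linked transcript, Xist, was above 8 in 3 of 3 WT and 1 of 3 pL2 arrays from MRI chow and in 0 of 12 Freising arrays, and with a sex-linked covariate Cd3e stayed 1.35 higher (limma adjusted p = 0.00297). The part of tissue makeup in the Cd3e difference was not tested.

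**Figure D2:**
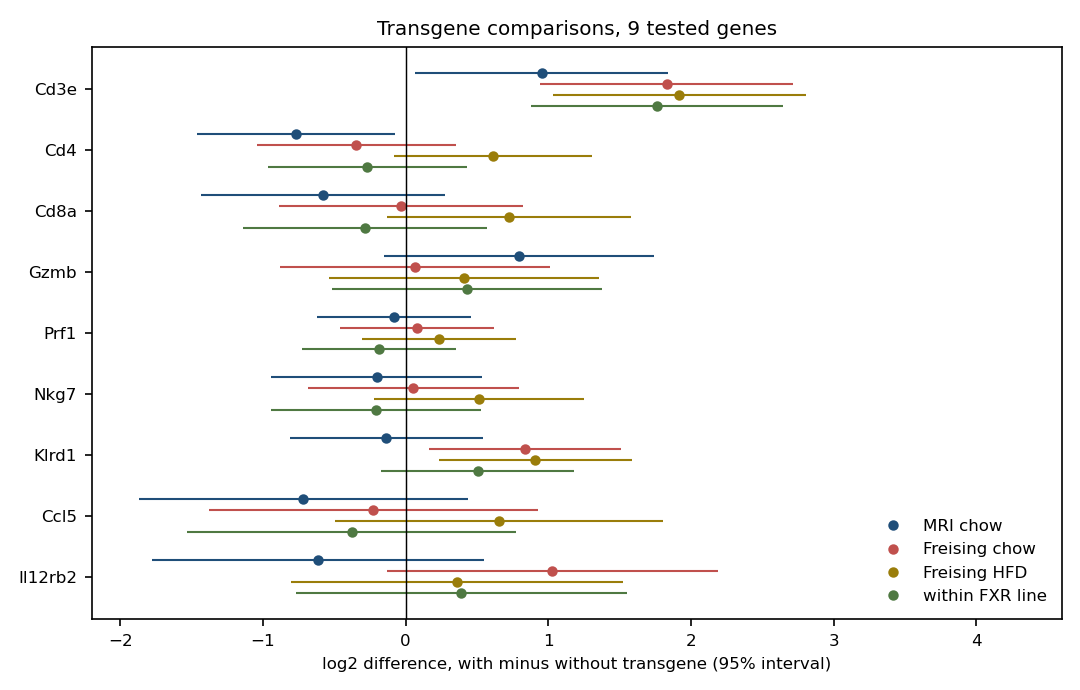
Log2 difference with minus without the IL-1 beta transgene (horizontal axis; points with 95% intervals from the limma fit) for the 9 tested members in 4 settings. The Cd3e intervals lay above 0 in all 4, at 0.95, 1.83, 1.92 and 1.76, although MRI chow did not pass after adjustment over all genes.

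Cd4, the co-receptor of helper T cells and also present on some macrophages, did not follow Cd3e. It measured 4.54, 3.98 and 4.56 in WT and 3.83, 3.08 and 3.87 in pL2 mice on chow at MRI. At Freising it measured 3.44, 3.69 and 3.84 in WT and 3.67, 3.28 and 3.00 in pL2 mice. The pL2 arrays lay below the WT arrays at MRI, and the groups overlapped at Freising. The mean difference was -0.56 ± 0.24 (limma adjusted p = 0.0958), with 5 of 6 pL2 arrays below their WT mean, and did not pass. It passed in a fit of the compared groups alone (limma adjusted p = 0.0488) and with array quality weights (-0.77, limma adjusted p = 0.00468).

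On HFD at Freising, the WT arrays measured 3.53, 4.00 and 3.41 for Cd4 and the pL2 arrays 4.43, 4.37 and 3.98. The 3 pL2 arrays on HFD lay above the 3 on chow, by 0.95 ± 0.34 on average, but the difference did not pass over all genes (limma adjusted p = 0.705). No gene passed for HFD in pL2 (0%), although 872 of 15242 had an unadjusted p under 0.05, among the members Cd4 alone. The diet effect in pL2 minus that in WT was 0.96 ± 0.48 for Cd4 (limma adjusted p = 0.861). The highest Cd4 array of all was pL2_Dclk_Notch1fl replicate 2 at 5.36. The genes most like Cd4 were the proton channel gene Hvcn1 (r 0.71 over 48 arrays), Tusc1 (0.67) and Rtca (0.66). Of the list means, that of macrophages had the highest r with Cd4, 0.57, against 0.30 for the T cell receptor list and 0.26 for the helper list. After removing group means these were 0.44, 0.26 and 0.03, and the granule list was at 0.53. The part of macrophages in the Cd4 differences was not tested.

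Cd8a encodes a chain of the co-receptor of killer T cells, also carried by many T cells within the gut epithelium. On chow it measured 4.44, 4.02 and 4.44 in WT and 3.64, 3.97 and 3.56 in pL2 mice at MRI, so the pL2 arrays were the lower. At Freising it measured 4.04, 4.23 and 3.88 in WT and 3.65, 4.49 and 3.91 in pL2 mice, and the groups overlapped. The mean difference was -0.30 ± 0.30 (limma adjusted p = 0.505; 95% interval -0.91 to 0.30). Within the facilities it was -0.58 ± 0.42 at MRI and -0.03 ± 0.42 at Freising.

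Klrd1 encodes CD94, the partner of some of the NKG2 receptors on NK cells and killer T cells. At Freising it measured 2.53, 2.58 and 3.71 in WT and 4.27, 3.40 and 3.67 in pL2 mice on chow, and 2.93, 2.79 and 2.81 in WT and 3.03, 4.68 and 3.54 in pL2 mice on HFD. The HFD groups did not overlap. The differences were 0.84 ± 0.33 on chow (limma adjusted p = 0.191) and 0.91 ± 0.33 on HFD (limma adjusted p = 0.165), and neither passed. Without 1 array at a time the HFD difference ran from 0.44 without pL2_Freising_HFD replicate 2 (limma adjusted p = 0.977) to 1.27 without replicate 1 of that group (limma adjusted p = 0.0281). At MRI it was -0.13 ± 0.33, and the difference between the facilities, 0.97 ± 0.47, did not pass (limma adjusted p = 0.255). In the interleukin-8 line at 12 months Klrd1 was 0.75 ± 0.33 above pL2_MRI_chow without overlap (limma adjusted p = 0.239).

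Klrd1 and Cd3e varied together, with r 0.69 over the 48 arrays and 0.44 after removing group means. The genes most like Klrd1 were Il2rb (0.77), Podnl1 (0.74) and Havcr2, a checkpoint receptor gene (0.74). Of a list of 12 NK and killer receptor genes, 10 were in the table and only 2 were tested, since the other 8 were above the array median in under 3 arrays. Neither of the 2 was called in the transgene comparison (median 0.31 against -0.01 over all genes). The mean of the list stayed between 2.59 and 3.20 in every array, below every array median.

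Among the granule genes, Prf1, which encodes the pore-forming perforin, had the smallest share of variance between groups, 15.4%. A share above 0 arises from the spread between arrays alone, so it does not show a group difference. It ranged from 3.86 to 5.36, and its transgene difference over both facilities was 0.00 ± 0.19 (limma adjusted p = 0.999; 95% interval -0.38 to 0.38). Its largest difference in any of the 22 comparisons was 0.24 ± 0.27, the transgene on HFD. The genes most like it reached only r 0.55 (Rnu11), and its r with Cd3e was -0.06.

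Gzmb encodes granzyme B, a protease that starts cell death in the target. In WT mice on chow it measured 2.21, 3.82 and 2.56 at MRI and 2.67, 3.08 and 2.56 at Freising, and in pL2 mice 3.67, 3.55 and 3.76 at MRI and 3.31, 2.73 and 2.47 at Freising. The WT groups spread wider than the differences of 0.80 ± 0.47 at MRI (limma adjusted p = 0.225) and 0.07 ± 0.47 at Freising. Of 36 pL2 arrays 11 lay above all 12 arrays without the transgene, among them all 3 of pL2_IL8_9mo (4.17, 4.16 and 4.19). Gzmb at 12 months in that line was -0.81 ± 0.47 against 9 months (limma adjusted p = 0.749). Its r with Cd3e was 0.61 over 48 arrays, and the genes most like it were Snx20 (0.71), Gda (0.68) and Pik3r5 (0.68).

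Gzma, the gene of granzyme A, was above the array median in only 2 arrays, pL2_Lgr5_Notch2IC replicate 3 (4.40) and pL2_Dclk_Notch2fl replicate 1 (4.19). The other 46 arrays gave 2.49 to 3.99. With no filter its transgene difference was -0.39 ± 0.21 (limma adjusted p = 0.231) and none of its 22 comparisons passed.

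Nkg7 encodes a granule membrane protein of NK and killer T cells. It measured 4.78, 4.35 and 4.63 in WT and 4.07, 4.13 and 4.95 in pL2 mice on chow at MRI, and 4.46, 4.82 and 4.90 in WT and 4.42, 5.30 and 4.63 in pL2 mice at Freising. The groups overlapped at both, and the mean difference was -0.07 ± 0.26 (limma adjusted p = 0.877). Ccl5, a chemokine made by activated killer cells, measured 4.59, 4.61 and 4.81 in WT and 3.74, 3.79 and 4.33 in pL2 mice at MRI, without overlap. At Freising it measured 4.34, 5.27 and 5.35 in WT and 4.66, 5.25 and 4.37 in pL2 mice, and the mean difference was -0.47 ± 0.40 (limma adjusted p = 0.434). Nkg7 and Ccl5 were the pair of members with the highest r, 0.75 over 48 arrays and 0.78 after removing group means. The genes most like Nkg7 were Cd7 (0.63), Tapbpl (0.62) and Fcmr (0.60), and those most like Ccl5 were Gzmk (0.61), Mpp1 (0.61) and the interferon-induced chemokine gene Cxcl10 (0.60).

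Of a list of 12 further granule and death ligand genes, 11 were in the table and 6 tested. In the transgene comparison 3 of the 6 were called, all lower, and the median was -0.19 against -0.01 over all genes, of which 21.9% were called, 1961 of them lower. These were the death ligand gene Tnfsf10 (TRAIL; -0.84 ± 0.28), the granzyme B inhibitor gene Serpinb9 (-0.62 ± 0.22) and the lysosome membrane gene Lamp1 (-0.22 ± 0.07), none of which is limited to lymphocytes. The Serpinb9 call held in only 5 of 9 alternatives and 3 of 12 fits with 1 array left out (limma adjusted p up to 0.181). The Tnfsf10 call held in 8 of 9 and 7 of 12 (limma adjusted p up to 0.126). That of Lamp1 held in 8 of 9 and 10 of 12 (limma adjusted p up to 0.0801).

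**Figure D3:**
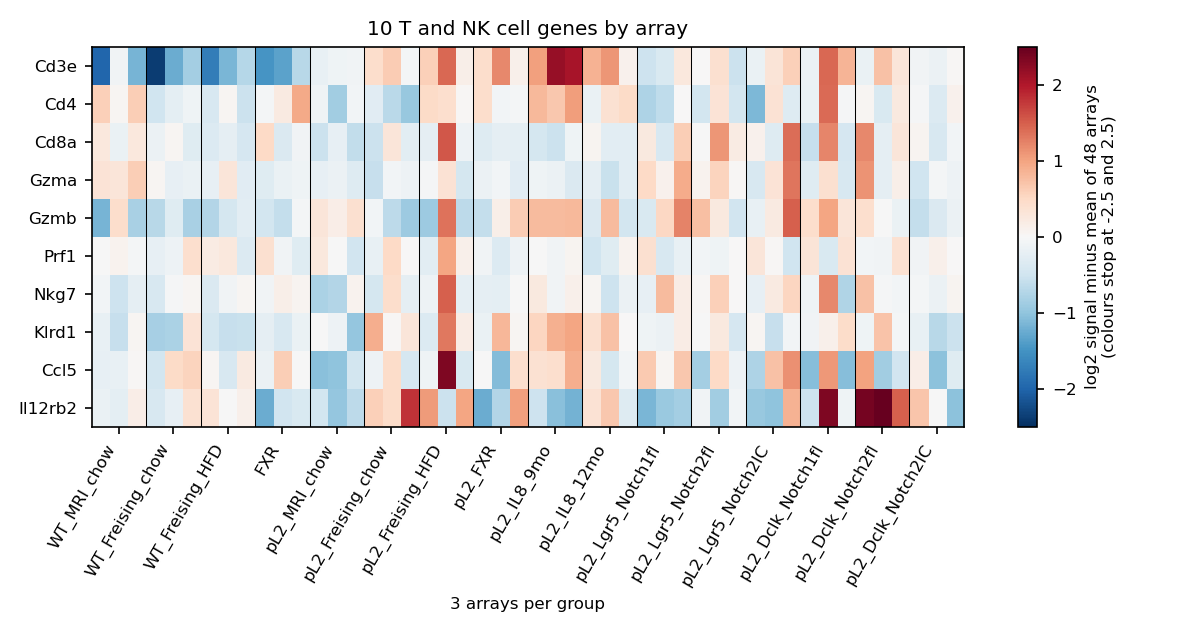
The 10 members (rows) in 48 arrays (columns, 3 per group), as log2 signal minus the gene's mean over all arrays; blue is below and red above that mean, and colours stop at 2.5 in either direction. Cd3e is low in the 4 groups without the transgene at the left, and pL2_Freising_HFD replicate 2 stands out in most rows.

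A single array, pL2_Freising_HFD replicate 2, held the highest value of all 48 for Cd8a (5.73), Prf1 (5.36), Nkg7 (6.34), Klrd1 (4.68) and Ccl5 (7.12), the second highest for Gzmb (4.73) and the fourth for Cd3e (7.14). For Ccl5 the other 2 arrays of its group measured 4.69 and 4.41. The same array had the highest list means for T helper genes, lymphocyte chemokines, intraepithelial lymphocyte genes and macrophages, was second for neutrophils and last for intestinal epithelium. Its gastric list mean was 47th of 48. Every HFD result in pL2 rests on 3 arrays that include this one. Without it, the Cd3e transgene difference on HFD was 1.56 (limma adjusted p = 0.357).

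Cd8a and Gzma were also high in 5 arrays with much intestinal transcript. The intestinal marker list averaged 8.16 to 10.02 in pL2_Lgr5_Notch1fl replicate 3, pL2_Lgr5_Notch2fl replicate 2, pL2_Lgr5_Notch2IC replicate 3, pL2_Dclk_Notch1fl replicate 2 and pL2_Dclk_Notch2fl replicate 1. In those 5, Cd8a measured 4.79 to 5.58 and in the other 43 arrays 3.56 to 5.73, where only pL2_Freising_HFD replicate 2 exceeded 4.79. Gzma measured 3.46 to 4.40 in them against 2.49 to 3.67, Nkg7 5.05 to 6.07 against 4.07 to 6.34, and Ccl5 5.28 to 5.94 against 3.70 to 7.12. Prf1 did not share this, at 3.86 to 4.30 against 3.88 to 5.36, nor did Klrd1, at 3.27 to 3.61 against 2.39 to 4.68. Over the 48 arrays the intestinal list mean had r 0.65 with Cd8a and 0.73 with Gzma, but 0.04 with Cd3e.

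The genes most like Cd8a were 2010106E10Rik, Aoc1 (intestinal diamine oxidase) and Muc3 (an intestinal membrane mucin), at r 0.74, 0.73 and 0.72. Those most like Gzma were the brush border genes Treh and Mep1a and the goblet cell mucin gene Muc2, all between 0.75 and 0.76. Each Notch group except pL2_Dclk_Notch2IC held 1 of the 5 arrays. Its part in the Notch comparisons of Cd8a, Gzma, Nkg7 and Ccl5, none of which passed, was not tested.

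**Figure D4:**
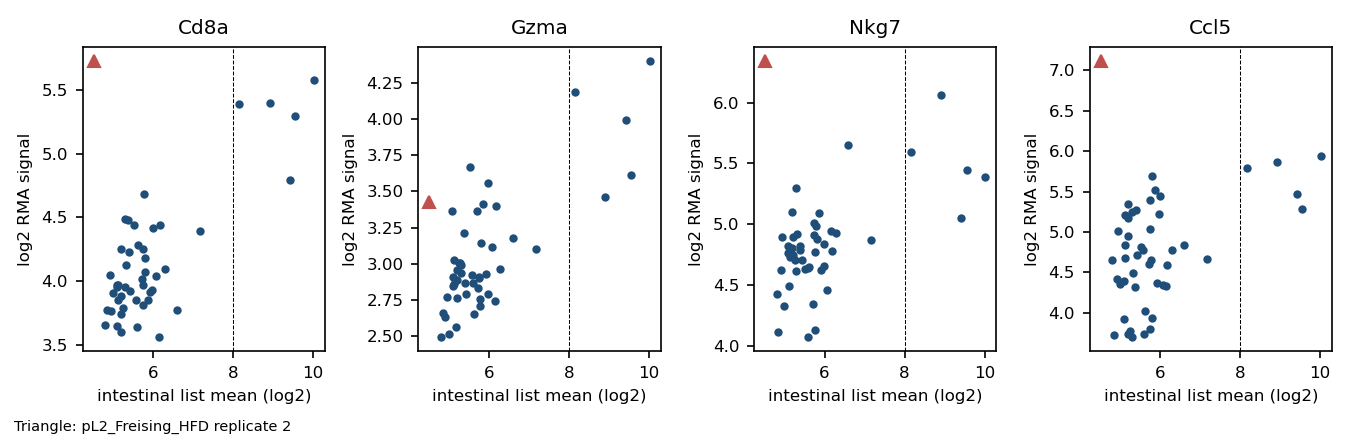
Log2 RMA signal of Cd8a, Gzma, Nkg7 and Ccl5 (vertical axes) against the mean log2 signal of 10 intestinal epithelium genes (horizontal axes) in 48 arrays; the dashed line is at 8 and the triangle is pL2_Freising_HFD replicate 2. The 5 arrays right of the line had Cd8a of 4.79 to 5.58.

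Il12rb2 encodes the signalling chain of the interleukin-12 receptor, through which T and NK cells are driven to make interferon gamma. It was the member called in a Notch comparison. In pL2_MRI_chow it measured 4.24, 3.73 and 4.06, and in pL2_Dclk_Notch2fl 7.11, 7.28 and 6.20, without overlap. The difference was 2.85 ± 0.57 (7.22-fold; limma adjusted p = 0.0170). Il12rb2 was the only 1 of 9 members called there, and 0.256% of all genes were called. pL2_Dclk_Notch2fl was also the highest of the 16 groups, 1.20 above pL2_Freising_chow, where the arrays measured 5.30, 5.16 and 6.52. The 95% half-width of 1.16 is for 1 comparison, while the groups were ordered by these same values, so this step is described and not tested.

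The call rested on few arrays. It was lost in a fit of the compared groups alone (limma adjusted p = 0.0739) and without pL2_MRI_chow replicate 2 or 3 or pL2_Dclk_Notch2fl replicate 1 or 2 (adjusted p up to 0.142), with differences of 2.64 to 3.18. With age as a covariate the difference was 2.98 (limma adjusted p = 0.0302), and without the arrays high in intestinal or liver transcripts 2.75 (limma adjusted p = 0.0356). Xist was above 8 in 3 of 3 pL2_Dclk_Notch2fl and 1 of 3 pL2_MRI_chow arrays. With a sex-linked covariate the difference was 3.07 (limma adjusted p = 0.0174).

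**Figure D5:**
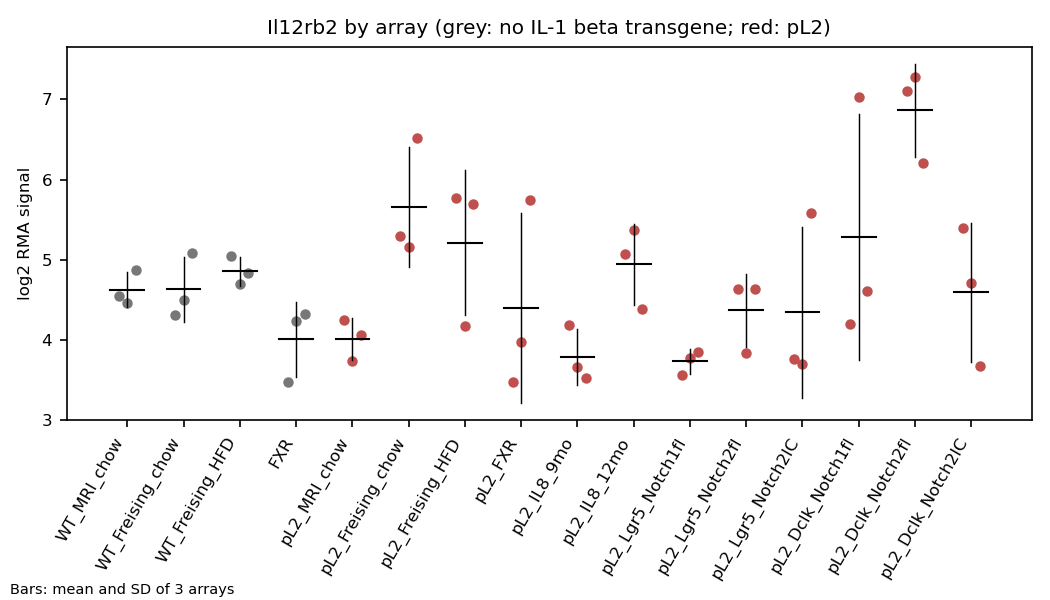
Il12rb2, log2 RMA signal, in each of 48 arrays by group; grey points are mice without the IL-1 beta transgene, red points pL2 mice, and bars give the mean and SD of 3 arrays. The 3 pL2_Dclk_Notch2fl arrays sit at 6.20 to 7.28, and pL2_Dclk_Notch1fl replicate 2 at 7.03.

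The other Dclk groups differed from this. With Notch2IC the arrays measured 5.39, 4.71 and 3.68, which was 0.58 ± 0.57 above pL2_MRI_chow (limma adjusted p = 0.932). Notch2IC minus Notch2fl gave -2.27 ± 0.57 without overlap, which did not pass (limma adjusted p = 0.556) but did with array quality weights (-2.03, limma adjusted p = 0.0408). With Notch1fl the arrays measured 4.19, 7.03 and 4.61, a difference of 1.27 ± 0.57 that rested on replicate 2 (limma adjusted p = 0.438). That replicate was among the arrays high in intestinal transcript. With the Lgr5 driver, Notch2fl measured 4.63, 3.84 and 4.64, Notch1fl 3.56, 3.78 and 3.85, and Notch2IC 3.77, 3.70 and 5.58.

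Il12rb2 did not move with the T cell genes. Its r with Cd3e was 0.10 over the 48 arrays, and with the mean of the 13 measured genes of the interleukin-12, interleukin-18 and interferon gamma list -0.29. None of the 9 tested genes of that list was called in pL2_Dclk_Notch2fl, where 0.256% of all genes were. This count is no result about the list. The median of the 9 was -0.22 against 0.01 over all genes. Its partner chain gene Il12rb1 measured 3.91, 4.18 and 4.46 in pL2_Dclk_Notch2fl and 4.03, 3.99 and 4.11 in pL2_MRI_chow. The interferon gamma gene Ifng measured 2.96, 2.69 and 2.87 against 2.99, 3.30 and 3.52.

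The genes most like Il12rb2 were Lyg1, a lysozyme-like gene (r 0.87), Serpina9 (0.80) and Flg2, a filaggrin family gene of cornified epithelium (0.80). Its r with the squamous epithelium list was 0.64 over the 48 arrays and 0.44 after removing group means. With the intestinal list it was 0.11 and 0.46. In the 5 arrays high in intestinal transcript Il12rb2 ranged from 3.84 to 7.11, and in the other 43 from 3.47 to 7.28. The squamous list was then compared between the 2 groups. It averaged 11.63, 11.48 and 11.26 in pL2_Dclk_Notch2fl and 11.03, 10.62 and 10.51 in pL2_MRI_chow, without overlap. Its median difference was 0.83 against 0.01 over all genes. None of its 8 tested genes was called, where 0.256% of all genes were. The intestinal list averaged 8.16, 5.09 and 5.38 against 5.59, 5.75 and 6.15. The part of the squamous share in the Il12rb2 difference was not tested.

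The transgene difference in Il12rb2 did not pass, at 0.21 ± 0.40 over both facilities (limma adjusted p = 0.766). The sign differed between the facilities, with -0.61 ± 0.57 at MRI and 1.03 ± 0.57 at Freising on chow, both without overlap. The difference between them, 1.64 ± 0.81, did not pass (limma adjusted p = 0.267) but did with array quality weights (2.03, limma adjusted p = 0.0359). Of all genes, 1.76% were called in that difference of differences, and 0 of 9 members were, with 2 (Klrd1 and Il12rb2) at an unadjusted p under 0.05.

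Among the genes of the interleukin-12 and interleukin-18 list, 3 of 9 tested were called in the transgene comparison, all higher, and the median was 0.175 against -0.01 over all genes. In that comparison 21.9% of all genes were called, 1380 higher and 1961 lower, so the counts of 3 of 9 here and of 2 of 7 for the helper and the residence genes lie near the share over all genes and are no result about the lists. They were the interleukin-18 receptor chains Il18rap (1.504 ± 0.313) and Il18r1 (0.83 ± 0.28) and Stat4 (0.80 ± 0.23), which carries the interleukin-12 signal. Stat4 was lost without the arrays high in intestinal or liver transcripts (limma adjusted p = 0.0518), and Il18r1 there and in 6 of 12 fits with 1 array left out (limma adjusted p up to 0.0717). Of 7 tested T helper and regulatory genes, 2 were called, both higher (median 0.35): the interleukin-17 gene Il17a (0.89 ± 0.26) and the co-stimulatory receptor gene Icos (0.65 ± 0.16). Of 9 tested lymphocyte chemokine genes 1 was called, the receptor gene Cxcr6 at 1.48 ± 0.25, while the list median was -0.14. Cxcr6 was also called at MRI (1.22 ± 0.36), on Freising chow (1.74 ± 0.36), on Freising HFD (1.76 ± 0.36) and in the FXR line (1.59 ± 0.36). The Cxcr6 call was lost at MRI without the arrays high in intestinal or liver transcripts, WT replicate 1 or pL2 replicate 1 (limma adjusted p up to 0.0648), and on Freising chow without WT replicate 2 (0.0582). On HFD it was lost in a fit of the compared groups alone and without pL2 or WT replicate 2 (limma adjusted p up to 0.133), and in the FXR line in none. Of 7 tested genes of intraepithelial lymphocyte residence, Il2rb was higher (0.66 ± 0.21) and Itga1, an integrin gene also of muscle and stroma, was lower (-1.26 ± 0.23).

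The transgene comparison within the FXR line also called genes of these lists. They were Cd3g, Cd5 (1.01 ± 0.29) and Zap70 (1.01 ± 0.27) of 8 receptor genes, Il18rap (1.55 ± 0.44) and Il12rb1 (0.93 ± 0.20) of 9 cytokine pathway genes, Ccr1 (1.49 ± 0.44) beside Cxcr6 of 9 chemokine genes, and Il2ra (0.92 ± 0.29) of 7 helper genes, all higher. Of the 6 plasma cell genes 3 were called, such as Jchain at 2.42 ± 0.70. All of these stand beside 10.1% of all genes called. In fits with 1 array left out, Zap70, Il18rap, Ccr1 and Il2ra lost their calls in 4 of 6 and Cd5 in 3 of 6 (limma adjusted p up to 0.0736, 0.105, 0.111, 0.240 and 0.128, over all alternatives). Il2ra also lost its call in 3 of 9 other alternatives and Cd5 in 1 of 9, while Cd3g, Cxcr6 and Il12rb1 lost theirs in none. Lists of other cells moved in this line too: 6 of 8 tested neutrophil markers were called higher, with list means of 3.88 to 4.76 in FXR and 7.16 to 7.63 in pL2_FXR. Of 8 squamous markers 3 were called higher (Dsg3, Krt14 and Trp63), with list means of 8.74 to 9.39 and 10.06 to 10.87. The same 3 were called lower in FXR against WT_MRI_chow (-2.72, -2.00 and -1.97), where 2.12% of all genes were called. The squamous list mean by group was 9.08 in FXR, 10.77 in WT_MRI_chow and 10.50 in pL2_FXR. For the neutrophil list it was 4.31, 5.35 and 7.31, so the FXR reference was below WT in both. The part of these lists in the differences of Cd3e and of the genes named here was not tested.

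No member was called in the remaining comparisons. For HFD in WT mice 0.164% of all genes were called, and for the diet effect in pL2 minus that in WT 0.0197%, with 0 of 9 members at an unadjusted p under 0.05 in either. Adding interleukin-8 at 12 months called 1.82% of all genes, with 1 member (Klrd1) at that unadjusted level, and 12 against 9 months called 0% with 1 (Cd3e), beside 1184 genes in all. FXR against WT called 2.12%, pL2_FXR against pL2 0.0853% and the difference between those 2 comparisons 0.138%, each with 0 members at an unadjusted p under 0.05.

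Against pL2_MRI_chow, Lgr5 Notch1fl called 0.144% of all genes, with Ccl5 (1.30 ± 0.57) at an unadjusted p under 0.05. Lgr5 Notch2fl called 0.0525%, with Cd8a (0.90 ± 0.42), and Lgr5 Notch2IC 0.138%, with Ccl5 (1.21 ± 0.57). Dclk Notch1fl called 0%, beside 1589 genes at the unadjusted level, of which 2 were members (Cd4 and Il12rb2). Dclk Notch2IC called 0.0197%, with 0 members. Notch2IC against Notch2fl called 0.0722% with the Lgr5 driver, with 0 members, and 0.0328% with the Dclk driver, with Il12rb2 alone. These 6 Notch comparisons with pL2_MRI_chow share its 3 arrays. In them the medians of the 9 members were 0.17, 0.31 and 0.335 with Lgr5 and 0.54, 0.55 and 0.26 with Dclk, in the order Notch1fl, Notch2fl, Notch2IC. The median over all genes lay between -0.08 and 0.01. Among the means of the 16 groups, pL2_MRI_chow ranked 16th for Cd8a, Nkg7 and Ccl5, 14th for Prf1 and 13th for Cd4, Klrd1 and Il12rb2. It ranked 11th for Cd3e and 5th for Gzmb. The medians of the members were thus taken against a reference low for most of them, and its part in them was not tested.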

How the data were processed

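Total RNA of 48 mouse samples was measured on Affymetrix arrays. The authors deposited log2 values, 1 for each probe set and array, made per the submitters' processing notes with RMA in Affymetrix Expression Console (version not given in the sources used here). RMA equalises the distribution of signal between arrays, so only relative levels can be read. Of 34390 probe sets, 23521 carried 1 gene symbol and were used; 1814 with several symbols and 9055 with none were left out. The probe set with the highest mean stood for each of 22180 symbols. The genome build of the probe sets was not given, and no detection calls were used. Groups came from genotype, facility, diet and age in the labels.

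With limma 3.58.1 (R 4.3.3), 16 group means were estimated from the 48 arrays together (32 residual degrees of freedom) for 15242 genes that exceeded the array median in 3 or more arrays. The 22 comparisons were two-sided, adjusted by Benjamini-Hochberg over all tested genes, and called at adjusted p below 0.05. Errors are standard errors from this fit. The fit was tested on simulated data. The number of arrays limits the precision.

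All 10 members are named with their values, as are called genes of 6 pathway lists (at most 4 per direction) and the 3 tested genes with the highest Pearson correlation with each member. Of the 13 cell type lists, those of mast cells, lymphatic vessel, skeletal muscle and hepatocytes are not described by group. The others are given by counts or means. Called members of the B cell, plasma cell, squamous and intraepithelial residence lists were named after their values were seen. Members and lists were chosen with earlier results of these data known. Alternatives were testing every gene, asking for 12 arrays above the median, averaging a gene's probe sets, fitting only the groups compared, weighting arrays by quality (gene-by-gene method), trended and robust variance moderation, normalising by cyclic loess, leaving out 10 arrays with an intestinal or liver list mean above 8, a sex-linked covariate, age for the Notch lines and leaving out each array.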

Additional observations from a re-analysis of the deposited data

How the results depend on the processing

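Alternative counts were made of called members in the 22 comparisons, and of called T cell receptor list genes in the mean transgene comparison. Of these 383 counts, 362 stayed within 1.5 times the main count and 21 moved. The main count of members was 1 in the comparisons that called Cd3e or Il12rb2 and 0 in all others. A member count of 0 or 1 therefore stayed only if unchanged. Where it was 0 there was no call to lose, so the 362 do not measure how firm the calls were. With 1 array left out, the Cd3e call held in 12 of 12 fits for the mean comparison and 3 of 6 on Freising chow. It held in 3 of 6 on Freising HFD and 5 of 6 in the FXR line, and the Il12rb2 call in 2 of 6. With array quality weights the number of called members became 2 for the mean transgene comparison (Cd3e and Cd4), 2 for MRI chow (Cd3e and Cd4), 1 for the difference between the facilities (Il12rb2) and 1 for Dclk Notch2IC against Notch2fl (Il12rb2). In fits of the compared groups alone it became 2 for the mean transgene comparison (Cd3e and Cd4) and 0 for Freising chow, Freising HFD and Dclk Notch2fl. Leaving out 1 array at a time gave 0 to 1 called members at MRI, 0 to 1 for Freising chow, 0 to 2 for Freising HFD, 0 to 1 for pL2_FXR against FXR and 0 to 1 for Dclk Notch2fl. No paired analysis was possible because the labels give no number that pairs samples across groups, and replicate numbers follow accession order. With no detection calls and 3 arrays a group, differences in Gzma, Klrd1, Gzmb, Cd4 and Cd8a, which lay below the array median in most arrays, were hard to detect.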

Other observations

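The table also held single-symbol probe sets of T cell receptor variable segments, which were looked up after the values of Trgv6 had been seen. Of the gamma chain segments 2 were in the table and tested, and both were higher with the transgene over both facilities, where 21.9% of all genes were called. Trgv6 was 2.05 ± 0.34 higher (limma adjusted p = 8.42e-05) and Trgv5 0.71 ± 0.17 higher (limma adjusted p = 0.00365). As background, T cells with the chain encoded by Trgv6 are known in mucosal tissue as producers of interleukin-17, and those with the Trgv5 chain in the epidermis. Of the alpha chain segments 5 were in the table and 3 tested, and none was called: Trav12-2 gave 0.15 ± 0.20, Trav7-4 0.13 ± 0.14 and Trav9d-3 0.27 ± 0.31. The only beta chain segment, Trbv13-2, gave -0.60 ± 0.27 (limma adjusted p = 0.101). A difference between the chains was not tested, and whether probe sets of such similar segments share signal was not tested.

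The B cell kinase gene Blk, which some gamma delta T cells are also known to express, was higher with the transgene at MRI (1.79 ± 0.42), on Freising HFD (2.02 ± 0.42) and in the FXR line (1.98 ± 0.42), comparisons in which 23%, 1.16% and 10.1% of all genes were called. It did not pass on Freising chow, where 1.64% did. The list of B cell markers that holds it had medians of 0.87 on Freising HFD and 1.13 in the FXR line, with Blk the only 1 of 4 tested members called in each.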
